A study of Mus musculus with 28 samples.

Results

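A set of genes that mark the injured and the repairing kidney tubule were followed through bulk RNA sequencing of mouse kidney cells, 8 of the 53392 genes in the per-library files. They are Havcr1, Lcn2, Spp1, Clu, Sox9, Sox4, Cd44 and Vim, and they were found by gene symbol in the transcript names of 16 libraries and in 12 tables of group comparisons. All 8 were present and all 8 passed the filter on low counts in every fit. In tubular cells Sox9 and Cd44 passed it through the group where they were highest, as given below.

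In the healthy adult kidney these genes are quiet in most proximal tubule cells. After ischemia the surviving epithelial cells switch them on while they flatten, lose their transport program, divide and rebuild the tubule, and the genes go down again where repair succeeds. Havcr1 encodes KIM-1, a phosphatidylserine receptor with which tubule cells take up dying neighbours, and Lcn2 encodes NGAL, a secreted carrier of iron-binding siderophores; both proteins are used as urine or plasma markers of acute kidney injury. Spp1 encodes osteopontin, a secreted matrix glycoprotein, and Cd44 a surface receptor for hyaluronan and osteopontin. Clu encodes the extracellular chaperone clusterin, Sox9 and Sox4 are SOX transcription factors, and Vim encodes the intermediate filament protein vimentin.

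Male mice of the FVB strain were studied, all but the sham group after an ischemic injury of the kidney. Injured mice received a miR-486-5p mimic (2 libraries per cell type), exosomes (3 libraries per cell type) or a scrambled miRNA (3 libraries per cell type), and these 3 groups have per-library files in both cell types. Untreated injured mice and sham mice were used only through the authors' deposited tables; per the labels they are re-analyses of earlier samples, so their origin and their group cannot be told apart when they are set against a treated group. Endothelial cells were pulled out with beads against CD31, and proximal tubules were microdissected, both after enzymatic digestion, with RNA from 3 male mice in each group per the labels. That number differs from the 2 mimic libraries with files, and p-values measure the spread between libraries, whatever each stands for. The age of the mice, the time after injury, the doses and the source of the exosomes are not given in the sources used here.

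Libraries held 8273783 to 25326882 estimated reads, with the mimic libraries the deepest in each cell type. Both cell types showed their own markers: Pecam1, an endothelial adhesion molecule, lay at 34.7 to 70.6 TPM (transcript abundance per length and depth) in endothelial libraries and 3.92 to 6.53 TPM in tubular libraries, and summed proximal tubule markers were 1422 to 14547 TPM in endothelial libraries and 13482 to 42349 TPM in tubular libraries. The endothelial libraries were not free of tubule RNA, since Umod, which encodes uromodulin in the thick ascending limb, reached 3505 to 11616 TPM there against 86.6 to 401.4 TPM in tubular libraries. TPM and the scaling of the fits did not coincide. Over all genes tested, the median log2 ratio of mean TPM minus the fitted log2 fold change was -0.33 (tubular) and -0.43 (endothelial) for exosomes against scrambled miRNA, and -0.14 and -0.20 for the mimic, so small differences in TPM are read against that shift.

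Of the 5 members that passed the test in tubular cells after exosomes (below an adjusted p of 0.05), Havcr1, Lcn2 and Sox4 had an entry in the RefSeq promoter table (GRCm38.p6), while Clu and Sox9 had none. Since these genes were called lower in the same comparison, the 250 bases before their RefSeq transcription starts are shown. They run 5′ to 3′ on the strand of the gene, with capitals for any of 5 motifs searched on both strands. The motifs were the TATA box (letters TATAAA), the CCAAT box, the AP-1 motif (letters TGANTCA), the STAT motif (letters TTCNNNGAA) and the GC box (letters GGGCGG). The Havcr1 stretch is the one before the start of Havcr1-201, its leading transcript by reads. The RefSeq start of Lcn2 is at 32387739, while its leading transcript Lcn2-201 starts upstream of it, at 32387797. The last bases of the Lcn2 stretch thus lie inside that transcript. The last 14 bases of the Sox4 stretch lie inside Sox4-201.
Havcr1 (chr11:46750918-46751167, plus strand): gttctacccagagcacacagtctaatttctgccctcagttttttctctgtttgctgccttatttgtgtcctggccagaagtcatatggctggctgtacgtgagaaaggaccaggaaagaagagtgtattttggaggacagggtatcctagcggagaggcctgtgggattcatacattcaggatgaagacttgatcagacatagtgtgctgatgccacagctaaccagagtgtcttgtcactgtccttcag
Lcn2 (chr2:32387740-32387989, minus strand): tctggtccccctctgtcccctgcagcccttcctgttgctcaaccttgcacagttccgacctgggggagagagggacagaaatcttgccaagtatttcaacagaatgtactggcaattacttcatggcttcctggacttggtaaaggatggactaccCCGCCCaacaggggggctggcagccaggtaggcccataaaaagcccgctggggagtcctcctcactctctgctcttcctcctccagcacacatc
Sox4 (chr13:28953700-28953949, minus strand): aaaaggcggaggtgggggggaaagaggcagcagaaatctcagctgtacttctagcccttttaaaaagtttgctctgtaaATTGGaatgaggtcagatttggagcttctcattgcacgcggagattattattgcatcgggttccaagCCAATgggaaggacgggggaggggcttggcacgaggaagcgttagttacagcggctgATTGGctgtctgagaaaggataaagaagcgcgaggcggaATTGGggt

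The 3 stretches shared none of the 5 motifs. Havcr1 held no match, Lcn2 held 1 GC box in reverse at base -94, and Sox4 held 4 CCAAT boxes, in reverse at bases -171, -47 and -8 and forward at base -104, where -1 is the base just before the start and the first base of the match is given. Among 32851 promoter stretches of the same length, 33.8% held a CCAAT box, 32.7% a GC box, 12.4% a TATA box, 7.02% a STAT motif and 6.75% an AP-1 motif. These matches describe letters in a window and not bound sites.

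In proximal tubular cells every marker was lower in each exosome and each mimic library than in each scrambled-miRNA library on the TPM scale, and the fitted fold change lay furthest from 0 for Havcr1 with either treatment. Havcr1, the KIM-1 gene (GRCm38 chromosome 11, 46735080 to 46779578), was at 1.87 and 1.41 TPM in the mimic libraries, at 2.80, 2.19 and 2.51 TPM in the exosome libraries and at 5.64, 169.9 and 376.3 TPM in the scrambled-miRNA libraries. The exosome and mimic libraries formed a narrow band, while the scrambled-miRNA libraries differed among themselves more than for any other marker, the highest being 66.7 times the lowest, with replicate 1 close to the treated band. The fitted log2 fold change of Havcr1 was -5.94 ± 1.16 (SE) after exosomes, with an adjusted p of 0.0326 by edgeR's quasi-likelihood test with Benjamini-Hochberg adjustment. After the mimic it was -6.56 ± 1.43, with an adjusted p of 0.123. In bulk RNA, fewer cells carrying a marker and less marker RNA per cell cannot be told apart.

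Lcn2, the NGAL gene (chromosome 2, 32384633 to 32388252), was at 1.04 and 0 TPM in the mimic libraries, at 2.21, 0.401 and 1.84 TPM in the exosome libraries and at 10.3, 17.8 and 61.2 TPM in the scrambled-miRNA libraries. Both treated groups lay below scrambled miRNA and overlapped each other, and mimic replicate 2 held no Lcn2 read among 23741806 reads, which allows up to 0.126 RPM (reads per depth; 3 reads, counting error only). Lcn2 fell after exosomes by 4.09 ± 0.97 on the log2 scale (edgeR adjusted p = 0.0469), and its value after the mimic was -5.88 ± 1.27 (edgeR adjusted p = 0.123).

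Among the secreted and matrix genes, Spp1 was the most abundant member per length in every group. Spp1 (chromosome 5, 104435118 to 104441050) was at 96.9 and 30.2 TPM in the mimic libraries, at 198.7, 79.4 and 62.9 TPM in the exosome libraries and at 265.1, 739.5 and 1275 TPM in the scrambled-miRNA libraries. On normalized CPM (read counts per depth, with the scaling of the fits) its exosome and scrambled-miRNA ranges overlapped, and its log2 fold change of -2.54 ± 0.64 missed the threshold (edgeR adjusted p = 0.0534). Clu (chromosome 14, 65968483 to 65981547) was at 9.95 and 5.35 TPM in the mimic libraries, at 25.1, 5.71 and 7.67 TPM in the exosome libraries and at 48.2, 173.2 and 197.5 TPM in the scrambled-miRNA libraries. Clusterin RNA thus stood lowest, within the scrambled-miRNA group, in replicate 1, as Havcr1, Lcn2 and Spp1 did. Clu fell after exosomes by 3.21 ± 0.59 on the log2 scale, the lowest adjusted p among the members at 0.0299 (edgeR), and was at -4.03 ± 0.73 after the mimic (edgeR adjusted p = 0.106).

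Cd44, which binds osteopontin and hyaluronan, was scarce in tubular cells, with 15 reads over the mimic libraries, 24 over the exosome libraries and 184 over the scrambled-miRNA libraries. Its level (gene on chromosome 2, 102811141 to 102901665) was 0.0560 and 0.0301 TPM in the mimic libraries, 0.0584, 0.136 and 0.0721 TPM in the exosome libraries and 0.310, 2.24 and 0.311 TPM in the scrambled-miRNA libraries. One library, scrambled-miRNA replicate 2, stood apart, at 7.22 times the lowest of its group. Its fitted values of -3.06 ± 0.81 after exosomes (edgeR adjusted p = 0.0594) and -4.16 ± 0.99 after the mimic (edgeR adjusted p = 0.128) missed the threshold.

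Both SOX factors were scarce as well. Sox9 (chromosome 11, 112782224 to 112787760), which is switched on in tubule cells that repopulate the nephron after injury, was at 0.0307 and 0.00473 TPM in the mimic libraries, at 0.0334, 0 and 0.0269 TPM in the exosome libraries and at 0.271, 1.15 and 0.532 TPM in the scrambled-miRNA libraries. These levels rest on 7, 7 and 172 reads per group, in that order, and exosome replicate 2 held none among 12950774 reads, which allows up to 0.232 RPM. Sox9 fell after exosomes, with a log2 fold change of -4.70 ± 0.95 (edgeR adjusted p = 0.0344), and was at -5.13 ± 1.10 after the mimic (edgeR adjusted p = 0.123). Sox4 (chromosome 13, 28948919 to 28953713), whose promoter stretch above carries the 4 CCAAT boxes, was at 0.614 and 0.135 TPM in the mimic libraries, at 0.431, 0.201 and 0.0887 TPM in the exosome libraries and at 1.23, 1.51 and 2.11 TPM in the scrambled-miRNA libraries. The scrambled-miRNA libraries lay close together for Sox4, and the treated ranges stayed below them. Sox4 fell after exosomes by 2.52 ± 0.58 on the log2 scale (edgeR adjusted p = 0.0441) and was at -2.14 ± 0.64 after the mimic (edgeR adjusted p = 0.173).

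Vim (chromosome 2, 13573927 to 13582826), the filament gene of cells that have lost epithelial shape, was the most even member across the scrambled-miRNA libraries. It was at 4.14 and 1.26 TPM in the mimic libraries, at 8.58, 2.09 and 1.76 TPM in the exosome libraries and at 15.3, 13.8 and 14.5 TPM in the scrambled-miRNA libraries. Its spread lay in the treated groups instead, and the fitted values of -1.44 ± 0.54 after exosomes (edgeR adjusted p = 0.144) and -2.30 ± 0.65 after the mimic (edgeR adjusted p = 0.161) did not pass.

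**Figure D1:**
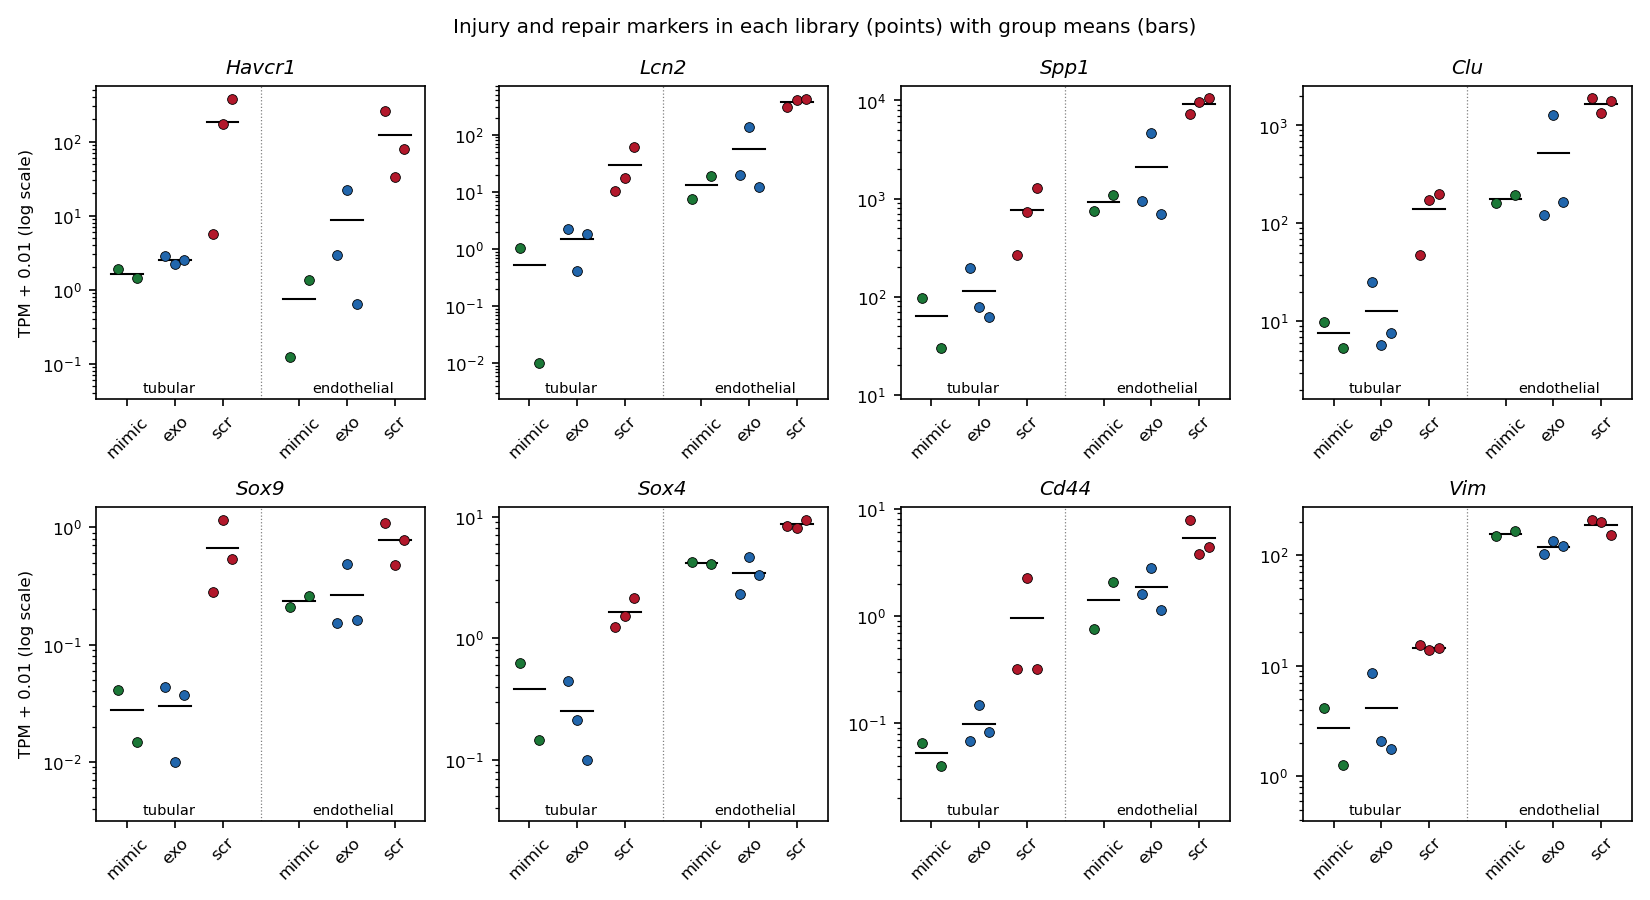
TPM plus 0.01 of each marker on a log axis, 1 point per library and 1 bar per group mean, with the mimic (green, 2 libraries), exosome (blue, 3) and scrambled-miRNA (red, 3) groups of tubular cells on the left and of endothelial cells on the right. In tubular cells every green and blue point lies below every red point for all 8 markers.

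Counted over the members, 5 of 8 were called lower in tubular cells after exosomes and 0 higher, where 2.41% of all 14913 genes tested were called lower. Sox9, which was called, and Cd44, which was not, passed the filter on low counts there through the scrambled-miRNA libraries. Sox9 held 0 to 6 reads per treated tubular library and 27 to 101 per scrambled-miRNA one. Cd44 held 4 to 11 and 22 to 134. The filter thus favoured a lower treated value for these genes, and their part in the counts below is no separate support. The median log2 fold change was -3.14 over the 8 members and -0.02 over all genes. All 8 lay below in every library by TPM, as 22.9% of genes did, and 7 of 8 by normalized CPM (14.7% of genes). After the mimic 0 of 8 were called by edgeR, all 8 had an unadjusted p under 0.05, as 2427 of the 14913 genes did, and DESeq2 called all 8 at an adjusted p under 0.05, among 773 genes in all. In that comparison edgeR called 0.0201% of all genes, the members' median was -4.10, and all 8 lay below in every library by TPM (19.9% of genes) and by normalized CPM (15.9%).

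The exosome calls moved with single libraries and with the fit, and DESeq2 called all 8 markers and 1828 genes. Without scrambled-miRNA replicate 1 edgeR called 7 members among 1005 genes in all, and without replicate 3 it called 4 among 1335. Without scrambled-miRNA replicate 2 or without any single exosome library it called 0 members. In those last 4 fits the calls over all genes were 85 without scrambled-miRNA replicate 2 and 12, 1 and 1 without exosome replicates 1, 2 and 3, while the members' median log2 fold changes were -2.84, -3.42, -3.18 and -2.97, and all 8 stayed below 0. With an offset for effective transcript length 0 members were called, with edgeR adjusted p-values of 0.0697 to 0.170, and 48 genes in all were called in place of 765.

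No marker passed the test between the mimic and exosomes. In tubular cells 7 of 8 markers had a lower fitted value after the mimic than after exosomes, with Lcn2 at -1.79 ± 1.23 and Sox4, the exception, at 0.39 ± 0.62. None of the 8 was called by edgeR (0% of all genes), none had an unadjusted p under 0.05, and DESeq2 called none; with 2 and 3 libraries this does not show that the treatments act alike. Havcr1 and Cd44 lay lower in both mimic libraries than in all exosome libraries, 2 of 8 members where 10.7% of genes did.

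Some marker lists of other cell types differed in summed level between the groups of tubular libraries. Summed over their marker lists, neutrophil genes were at 0.00687 to 1.63 TPM after the mimic, 0.84 to 1.39 TPM after exosomes and 4.76 to 30.5 TPM after scrambled miRNA, with S100a8 and S100a9 at 0 in 1 mimic library. Macrophage genes were at 5.66 to 10.2 TPM, 9.10 to 19.7 TPM and 21.0 to 27.2 TPM in the same order, and fibroblast and pericyte genes at 0.954 to 3.58 TPM, 1.37 to 2.25 TPM and 5.04 to 5.55 TPM. Proximal tubule genes summed to 29645 to 42349 TPM, 28965 to 39761 TPM and 13482 to 20618 TPM, but singly they went both ways after exosomes, with 5 of 8 fitted folds positive and 1 called higher, and 8 of 8 were positive after the mimic. None of the 3 neutrophil, 6 macrophage or 6 fibroblast genes tested passed the test in either comparison with scrambled miRNA. Distal and collecting duct genes had 5 of 6 negative folds after exosomes (median -0.46) and 4 of 6 after the mimic (median -0.71), with 0 called. Their sums overlapped, at 43.8 to 122.2 TPM after the mimic, 38.4 to 111.9 TPM after exosomes and 46.3 to 172.8 TPM after scrambled miRNA. Other lists went elsewhere: podocyte genes had 5 of 5 positive folds after exosomes (median 0.54) and 5 of 5 negative after the mimic (median -2.24), endothelial genes 5 of 7 positive (0.31) and 5 of 7 negative (-0.52), and thick ascending limb genes had a median of 0.08 with either, 1 of them called higher after exosomes. The part of these cell types in the marker values was not tested.

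**Figure D2:**
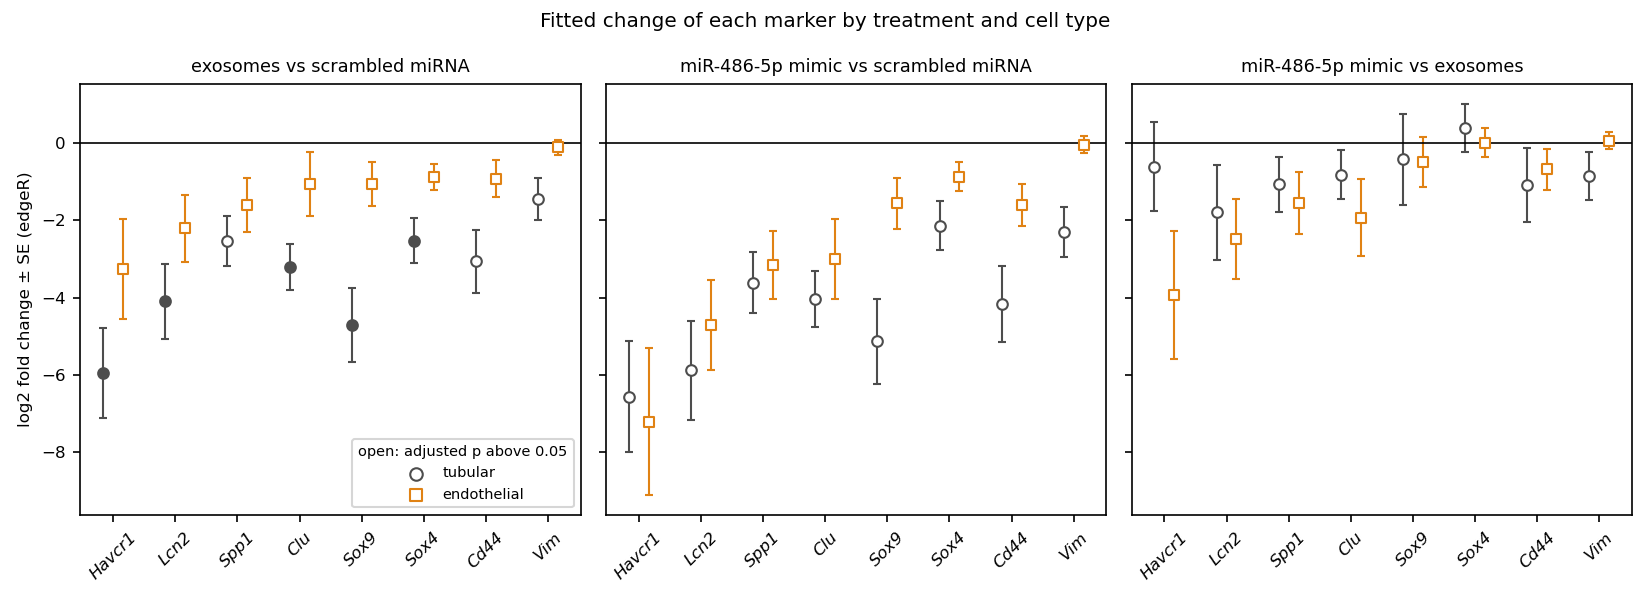
Fitted log2 fold change with its standard error for each marker (edgeR), in tubular (grey circles) and endothelial (orange squares) libraries, for exosomes against scrambled miRNA, the mimic against scrambled miRNA and the mimic against exosomes; filled symbols have an adjusted p below 0.05. The 5 filled symbols are tubular Havcr1, Lcn2, Clu, Sox9 and Sox4 after exosomes, and endothelial Vim lies at -0.11 and -0.04.

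In endothelial libraries most markers were lower by TPM after either treatment than after scrambled miRNA, but none passed the test. Havcr1 was at 0.113 and 1.35 TPM after the mimic, at 2.95, 22.4 and 0.631 TPM after exosomes and at 259.9, 33.5 and 78.7 TPM after scrambled miRNA. Lcn2 was at 7.41 and 18.8 TPM after the mimic, at 19.5, 137.4 and 12.1 TPM after exosomes and at 304.6, 405.4 and 418.9 TPM after scrambled miRNA. By TPM neither gene overlapped between a treated group and scrambled miRNA, and exosome replicate 2 was the highest treated library for both. By normalized CPM Havcr1 did overlap, with exosome replicate 2 at 73.8 and scrambled-miRNA replicate 2 at 71.5. Spp1 was at 744.8 and 1102 TPM after the mimic, at 941.6, 4697 and 690.8 TPM after exosomes and at 7350.0, 9571 and 10485 TPM after scrambled miRNA. Clu was at 162.5 and 193.6 TPM after the mimic, at 121.4, 1280.3 and 165.2 TPM after exosomes and at 1888, 1343 and 1765 TPM after scrambled miRNA. For Clu, exosome replicate 2 came close to the lowest scrambled-miRNA library by TPM, while replicates 1 and 3 lay near the mimic libraries. By normalized CPM exosome replicate 2, at 3543, lay above every scrambled-miRNA library (2459 to 3466).

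Within the endothelial libraries the receptor and the transcription factors were scarcer than Lcn2, Spp1 and Clu. Cd44 was at 0.743 and 2.05 TPM after the mimic, at 1.60, 2.80 and 1.13 TPM after exosomes and at 7.84, 3.75 and 4.38 TPM after scrambled miRNA. Sox4 was at 4.20 and 4.07 TPM after the mimic, at 2.32, 4.64 and 3.32 TPM after exosomes and at 8.42, 8.04 and 9.45 TPM after scrambled miRNA. For both genes the treated libraries lay below the scrambled-miRNA ones by TPM. By normalized CPM Cd44 overlapped, with exosome replicate 2 at 28.4 and scrambled-miRNA replicate 2 at 23.2. Sox9 was at 0.201 and 0.252 TPM after the mimic, at 0.144, 0.473 and 0.153 TPM after exosomes and at 1.07, 0.472 and 0.769 TPM after scrambled miRNA, and exosome replicate 2 overlapped the scrambled-miRNA range. Vim was at 147.9 and 164.6 TPM after the mimic, at 103.0, 134.2 and 121.5 TPM after exosomes and at 209.3, 198.0 and 153.7 TPM after scrambled miRNA. Vimentin, which endothelial cells make in health, had the fitted values nearest to 0 among the members, -0.04 ± 0.22 after the mimic and -0.11 ± 0.19 after exosomes.

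By edgeR 0 of 8 markers and 0% of all 16316 genes were called in endothelial cells after exosomes, with 4 members and 1860 genes at an unadjusted p under 0.05 and 0 members and 412 genes called by DESeq2; the members' median log2 fold change was -1.07. After the mimic 0 of 8 and 0% of genes were called, with 7 members and 3176 genes at an unadjusted p under 0.05 and a median of -2.30. There DESeq2 called 4 members (Havcr1, Lcn2, Spp1 and Cd44) and 1355 genes. Between the mimic and exosomes 0 of 8 and 0% were called, with 2 members (Havcr1 and Lcn2) at an unadjusted p under 0.05 and 0 called by DESeq2. After exosomes 7 of 8 members lay below in every library by TPM, as 23% of genes did, but only Lcn2 and Sox4 did by normalized CPM (6.61% of genes). After the mimic 7 of 8 did so on both scales, all but Vim, against 26.2% of genes by TPM and 22.2% by normalized CPM. No member lay lower in every mimic library than in all exosome libraries, as 3.32% of genes did. Vim lay higher in every mimic library than in all exosome libraries by TPM, but its ranges overlapped by normalized CPM. The share of genes higher in that way was not counted.

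Endothelial exosome replicate 2 was the highest of its group for all 8 markers, and the calls moved with it. Without it edgeR called 3 members after exosomes, Lcn2, Spp1 and Clu, among 55 genes in all. Their log2 fold changes were -4.29, -3.13 and -3.16, against -2.21, -1.61 and -1.07 with it. That library had 23.8% mitochondrial reads, beside 14.6% and 23.0% in replicates 1 and 3, and its summed proximal tubule markers (2377 TPM) lay between those of replicate 1 (14547 TPM) and replicate 3 (1422 TPM). The mimic calls also moved when an exosome library was left out, to 4 members without exosome replicate 1, 3 without replicate 2 and 2 without replicate 3. Calls over all genes rose in the same fits, from 0 to 1321, 185 and 366. Beside the marker values in endothelial libraries, summed thick ascending limb genes were at 11227 to 12541 TPM after the mimic, 5400 to 8662 TPM after exosomes and 3651 to 8178 TPM after scrambled miRNA, and neutrophil genes at 17.9 to 30.4 TPM, 8.68 to 15.3 TPM and 34.5 to 60.0 TPM. In the same order, distal and collecting duct genes were at 585.5 to 636.9 TPM, 270.0 to 530.7 TPM and 163.8 to 224.0 TPM, and macrophage genes at 59.9 to 144.5 TPM, 67.9 to 85.2 TPM and 116.9 to 170.8 TPM. Proximal tubule genes were at 1516 to 1832 TPM after the mimic, with 8 of 8 fitted folds negative (median -1.74), and at 3923 to 8691 TPM after scrambled miRNA. Mitochondrial reads were 14.6 to 23.8% in the treated endothelial libraries and 9.08 to 14.3% in the scrambled-miRNA ones, with no overlap. The part of these measures in the marker values was not tested.

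Set against tubular libraries over the 3 treatments, endothelial libraries held more of 7 markers. Vim was higher by 4.74 ± 0.33 on the log2 scale (edgeR adjusted p = 2.69e-08), Lcn2 by 4.44 ± 0.72, Clu by 4.40 ± 0.58, Cd44 by 3.95 ± 0.47, Spp1 by 3.87 ± 0.53, Sox4 by 3.12 ± 0.32 and Sox9 by 2.39 ± 0.51. The 6 after Vim had adjusted p-values of 0.000884 or less by edgeR, and 7 members were called in each of 16 fits that left out 1 library. Havcr1 was at -0.22 ± 0.80 (edgeR adjusted p = 0.822). The share is high among all genes too, since 36.3% of 17143 genes were called higher in endothelial libraries, and the endothelial fraction also held the Umod RNA given above.

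The 6 groups were also ordered by mean TPM. Scrambled-miRNA endothelial libraries were highest for 7 markers, from 0.77 ± 0.30 TPM for Sox9 to 9136 ± 1612 TPM for Spp1 (SD, n = 3), and the tubular mimic or exosome group was lowest for all of those 7. Only for Havcr1 did tubular scrambled-miRNA libraries lead, at 184.0 ± 185.7 TPM against 124.0 ± 119.8 TPM in endothelial ones (SD, n = 3 each), and these ranges overlapped. For Vim the endothelial groups, at 119.6 to 187.0 TPM on average, stood clear of the tubular ones, at 2.70 to 14.5 TPM. For Lcn2, Spp1, Clu and Cd44 the tubular scrambled-miRNA range overlapped that of the endothelial mimic libraries.

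Whether a treatment moved the markers more in one cell type was tested directly. After exosomes all 8 fitted values were more negative in tubular than in endothelial cells, from -3.61 ± 1.14 for Sox9 to -0.90 ± 1.04 for Spp1. After the mimic 7 of 8 were, from -3.57 ± 1.24 for Sox9 to -0.45 ± 1.16 for Spp1, with Havcr1 at 0.64 ± 2.03. Over all genes 52.9% were negative after exosomes and 54.4% after the mimic. Without endothelial exosome replicate 2, 6 of 8 exosome values stayed negative. The members' median was then -0.61 in place of -1.985, with Havcr1 at -0.10 and Clu at -0.03. EdgeR called 0 of these differences for either treatment (0% of all genes in both). Unadjusted p-values under 0.05 were reached by 2 members after exosomes (Sox9 and Sox4), among 1333 genes. After the mimic 3 members did (Sox9, Cd44 and Vim), among 2650 genes. DESeq2 called 0 members after exosomes (34 genes in all) and 1, Vim, after the mimic (609 genes in all). Without the filter on low counts, where every gene was given the pooled spread, edgeR called 7 members after exosomes and 4 after the mimic. Over all genes it then called 503 and 1716.

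Libraries of the 2 cell types share numbers in the labels, which do not say whether a number marks the same mouse. Under scrambled miRNA, Lcn2 and Spp1 came in the same order over numbers 12, 14 and 16 in both cell types, lowest in 12 and highest in 16. For Havcr1 the order differed, and number 12 held the highest endothelial value of that group, 259.9 TPM, and the lowest tubular one, 5.64 TPM. Number 18 held the highest endothelial exosome values for all 8 markers, while its tubular library held the lowest exosome values for Havcr1, Lcn2, Clu and Sox9 and the highest for Cd44.

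The sham and untreated-injury arms are known here only through the authors' deposited tables, whose log2 fold changes are shrunken towards 0, most of all in tubular mimic against sham. In the authors' deposited table of untreated injury against sham in tubular cells, 7 of 8 markers were higher (adjusted p below 0.05), all but Vim, where 11.5% of genes were. There the deposited log2 folds ran from 2.81 ± 0.80 (SE) for Cd44 and 2.98 ± 0.60 for Clu, through 3.11 ± 0.62 for Sox4, 3.58 ± 0.55 for Spp1 and 4.51 ± 0.83 for Sox9, to 5.19 ± 1.12 for Havcr1 and 6.84 ± 1.33 for Lcn2. The authors' deposited table for endothelial cells gave 7 of 8 higher as well, again all but Vim, where 3.3% of genes were, with Lcn2 at 7.20 ± 0.75 and Havcr1 at 4.86 ± 1.75.

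The treated groups were set against the same sham libraries, and whether their values differ between cell types was not tested. In the authors' deposited table of exosome-treated injury against sham in tubular cells, 0 markers were higher and 2 were lower, Sox9 at -2.74 ± 0.97 and Sox4 at -1.90 ± 0.66, where 4.96% of genes were lower. Havcr1, Lcn2 and Spp1 were at 0.08, -0.01 and 0.06 in the authors' deposited table, with adjusted p-values of 0.637, 0.968 and 0.866. The authors' deposited table of mimic-treated injury against sham in tubular cells called 1 marker lower, Clu, with a shrunken fold of -0.05 and an adjusted p of 0.0392, where 0.986% of genes were lower. In endothelial cells the authors' deposited tables had 6 of 8 markers higher than sham after exosomes (3.35% of genes), with Lcn2 at 4.81 ± 0.76, Spp1 at 2.87 ± 0.65, Cd44 at 2.52 ± 0.68 and Clu at 2.37 ± 0.83, and 3 of 8 after the mimic (3.93% of genes), Lcn2 at 1.96 ± 0.92, Cd44 at 1.61 ± 0.77 and Vim at 1.05 ± 0.42. Vim was thus called over sham in endothelial cells with either treatment, at 0.97 ± 0.40 after exosomes in the authors' deposited table, and not in untreated injury, at 0.13 ± 0.25; that difference was not tested.

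**Figure D3:**
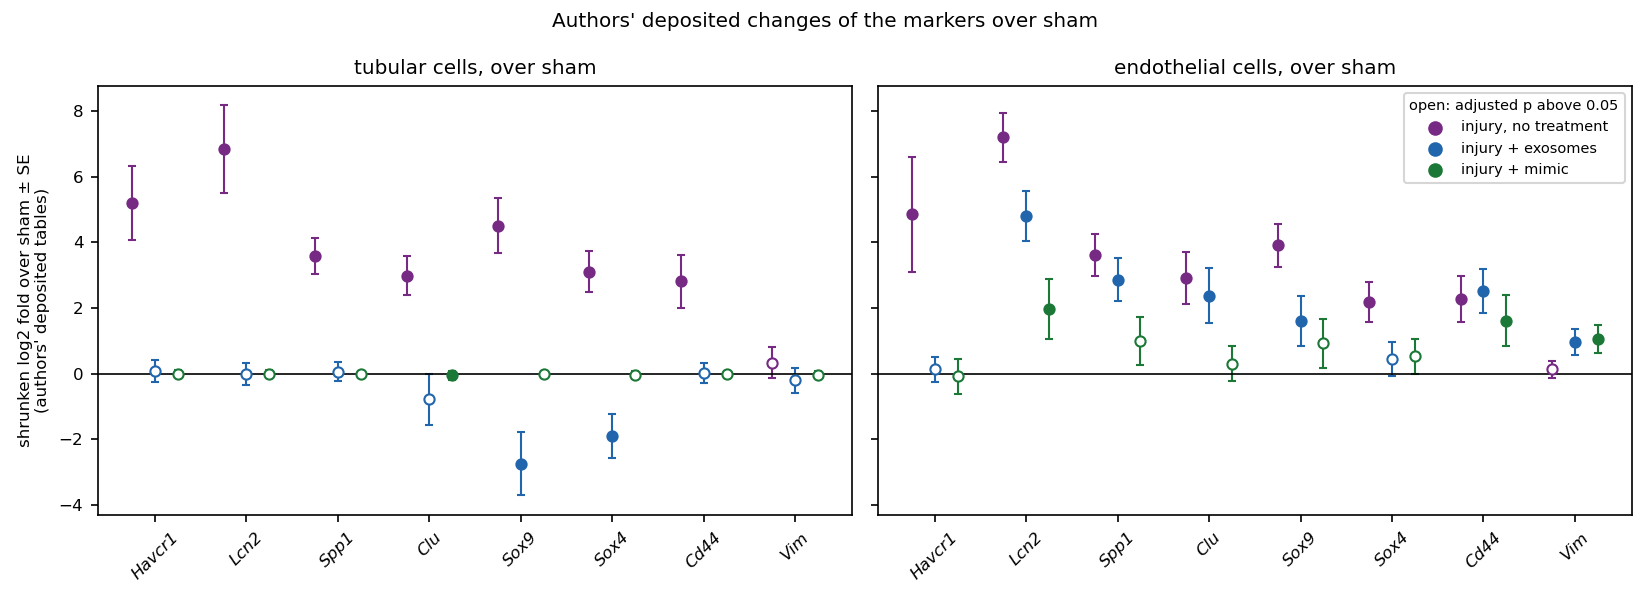
Log2 fold change over sham with its standard error, from the authors' deposited tables and shrunken by them, for untreated injury (purple), injury with exosomes (blue) and injury with the mimic (green); filled symbols have an adjusted p below 0.05. In tubular cells 7 purple markers are filled above 0, with Vim open at 0.33, while blue Sox9 and Sox4 lie at -2.74 and -1.90. In endothelial cells 6 blue and 3 green markers are filled above 0.

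Set directly against the treated groups, untreated injury was higher for all 8 markers in tubular cells in the authors' deposited tables, both over exosomes (17.6% of genes) and over the mimic (14.1% of genes). The deposited folds were widest for Lcn2, 6.99 ± 1.33 over exosomes and 8.84 ± 1.54 over the mimic, and for Sox9, 7.86 ± 0.87 and 7.14 ± 0.98, and narrowest for Vim, 1.28 ± 0.70 and 1.94 ± 0.84, in the authors' deposited tables. In endothelial cells the authors' deposited tables called 2 of 8 higher over exosomes (Lcn2 at 1.73 ± 0.91 and Sox9 at 1.57 ± 0.74, where 1.83% of genes were) and 5 of 8 over the mimic (Havcr1, Lcn2, Spp1, Clu and Sox9, where 6.46% of genes were). The authors' deposited table of untreated injury over scrambled miRNA called 0 markers in endothelial cells, where 0.344% of genes were higher, and 2 in tubular cells, Sox4 at 3.31 ± 0.62 and Sox9 at 2.56 ± 0.88, where 11.1% of genes were. These tables share their untreated and sham libraries, so the values of one comparison are not independent of the next.

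Each marker was carried mainly by its protein-coding transcripts when reads were counted, but short transcripts took a larger place in TPM, which divides by effective length. Sox9 and Sox4 have 1 transcript each, and Lcn2-201 and Spp1-202 held 99.6% and 90.0% of reads of their genes in endothelial libraries and 100% and 89.5% in tubular libraries. Havcr1-201 held 68.0% of Havcr1 reads in endothelial and 66.9% in tubular libraries, and Havcr1-204, a form of 565 bases that ends 23333 bases before the 3′ end of the gene, held 30.7% and 30.5% of TPM but 7.77% and 7.50% of reads. Clu-205, of 558 bases and annotated as a target of nonsense-mediated decay, held 43.6% and 43.5% of TPM but 13.8% and 13.7% of reads. Vim-203, a retained-intron form of 535 bases, led Vim by TPM with 55.1% and 57.3%, while the coding Vim-206 led by reads with 55.2% and 54.8%. Gene TPM of Clu and Vim therefore holds a large part assigned to short forms.

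Cd44 was the member whose transcripts were least settled. Cd44-207, of 14 exons, held 47.7% of reads in endothelial and 56.7% in tubular libraries, and Cd44-203, of 9 exons, held 39.1% and 22.3%. The share of Cd44-203 in gene TPM averaged 52.4 ± 9.3% over endothelial libraries and 42.9 ± 46.1% over tubular libraries (SD, n = 8 each), where it ran from 0 to 100% on few reads. For 6 genes the share of the leading transcript was compared between the cell types with a two-sided exact permutation test and Benjamini-Hochberg adjustment. Only Lcn2-201 passed, at 98.96 ± 1.20% in endothelial and 100 ± 0% in tubular libraries (SD, n = 8 and 7, exact p = 0.00404, adjusted p = 0.0242), and 0 passed when libraries with under 10 reads of the gene were left out. For the other 5 genes the adjusted p was 0.683 to 0.771 by the exact test.

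**Figure D4:**
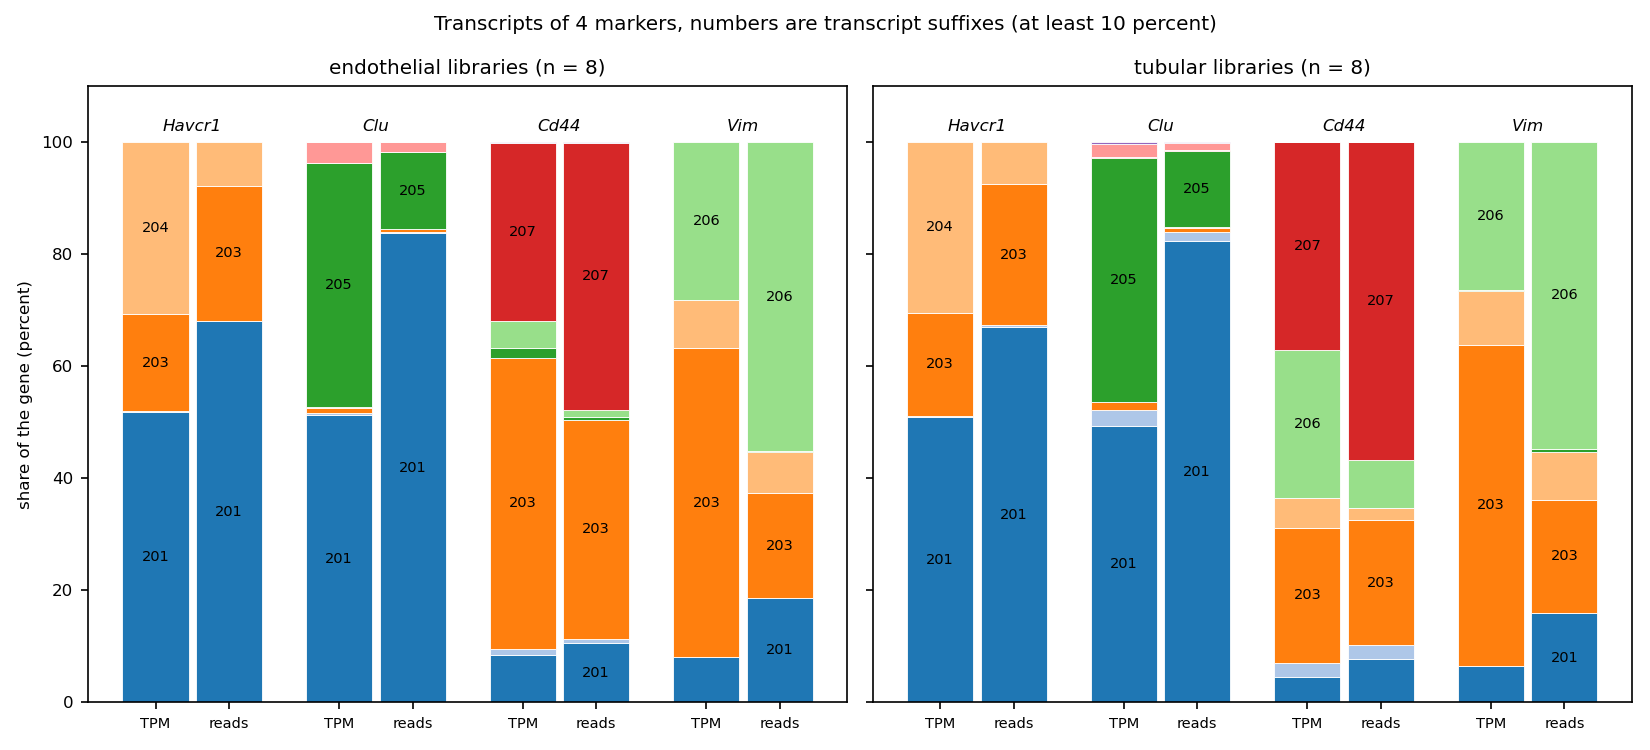
Share of each transcript in gene TPM and in gene reads (percent) for Havcr1, Clu, Cd44 and Vim, over 8 endothelial libraries on the left and 8 tubular libraries on the right; numbers are transcript suffixes, written where the share is at least 10%. Short Vim-203 and Clu-205 fill 55.1% and 43.6% of TPM but 18.7% and 13.8% of reads in endothelial libraries.

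Of 38 other genes of the injured tubule 36 were tested in tubular cells after exosomes, 12 were called lower and 0 higher by edgeR, 34 had a negative fold change, and the median was -2.03. Over all genes 2.41% were called lower, 51.2% had a negative fold change and the median was -0.02. The list was chosen with earlier results of these data known, so this excess is a description and not independent support. Among those with the lowest p were Hmox1 (heme oxygenase 1), at 6.50 ± 1.49 TPM after exosomes and 30.9 ± 12.4 TPM after scrambled miRNA (SD, n = 3 each), Fosl1, an AP-1 subunit, and S100a6, a calcium-binding protein. Their log2 fold changes were -1.98 ± 0.32, -7.30 ± 1.30 and -4.25 ± 0.77, with edgeR adjusted p-values of 0.0243, 0.0288 and 0.0295. Fosl1 was near the floor after exosomes, at 0 to 0.0211 TPM against 0.422 to 3.56 TPM after scrambled miRNA, so the size of its fold is loose. S100a6 was at 3.62 to 11.5 TPM and 34.6 to 266.7 TPM in the same order. After the mimic 0 of the 36 were called by edgeR (0.0201% of all genes) and all 36 were negative, with a median of -2.54. In endothelial cells 0 of 38 were called (0% of all genes), with medians of -0.73 after exosomes and -1.08 after the mimic. Between the cell types 27 of the 38 were called higher and 1 lower in endothelial libraries, where 36.3% of all genes were called higher.

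No gene passed among those that bind or process the marker proteins, where 765 of all 14913 genes tested were called in either direction. At that share 0 calls in lists this short say nothing particular about these genes. Of the osteopontin and CD44 partners 0 of 12 were called in tubular cells after exosomes (median log2 fold change -0.51), the closest being the integrin subunit Itgb5 at -0.57 ± 0.14 and Msn, the moesin that links CD44 to actin, at -1.22 ± 0.30, with edgeR adjusted p-values of 0.0508 and 0.0510. None of 4 sheddases and their inhibitors (median -0.16), 4 clusterin receptors (median -0.75) or 4 receptors for lipocalin and iron (median 0.07) was called, with Lrp2, the megalin that takes up NGAL, at 0.20 ± 0.41. Among 5 tested genes of the TIM family and of phosphatidylserine handling 0 were called (median -0.57), and Gas6 and Mfge8, both bridging proteins for dying cells, were at -0.64 ± 0.17 and -1.66 ± 0.45 with edgeR adjusted p-values of 0.0603 and 0.0649.

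For the lists that follow, 2.41% of all 14913 genes tested were called lower. On the list of other SOX genes 0 of 6 tested were called (median -0.09), and Sox12 was at -0.74 ± 0.34. Of 14 genes of the EGFR, Notch, Wnt and YAP signals that act upstream of SOX9, 1 was called lower, the receptor Notch2, at 0.649 ± 0.040 TPM after exosomes and 1.31 ± 0.31 TPM after scrambled miRNA (SD, n = 3 each), with a log2 fold change of -0.71 ± 0.15 and an edgeR adjusted p of 0.0390. Ankrd1, a YAP target, was at -5.03 ± 1.28 with an edgeR adjusted p of 0.0543. It was near the floor after exosomes, at 0 to 0.0458 TPM against 0.341 to 1.11 TPM after scrambled miRNA. Beside vimentin, 2 of 6 genes of the filament list were called lower, the lamin gene Lmna at -1.08 ± 0.13 and Plec, whose plectin links filaments to membranes and actin, at -1.43 ± 0.24, with edgeR adjusted p-values of 0.0190 and 0.0252. After the mimic 0 genes of any of these lists were called in tubular cells by edgeR, where 3 of all 14913 genes were. After either treatment 0 were called in endothelial cells, where 0 of all 16316 genes were.

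The genes that tracked each marker most closely across the 8 tubular libraries were picked from 9584 genes by Pearson's r of log2 CPM, as a description, since the libraries share 3 treatment groups. Havcr1 ran with Plin2, a lipid droplet coat gene (r = 0.996), Pvr, the poliovirus receptor gene (0.994), and 2010003K11Rik (0.985). Lcn2 ran with Fgg and Fgb (0.992 and 0.991), 2 fibrinogen chains, and with Psat1, an enzyme of serine synthesis (0.981). Spp1 and Clu shared 2 of their 3 closest genes, Anxa2 (0.991 and 0.990) and Iqgap1 (0.989 and 0.991), with Ppp2r5c (0.995) for Spp1 and S100a6 (0.991) for Clu. Sox9 ran with Elf3, Bcl3 and Fmn1 (0.988, 0.985 and 0.977) and Sox4 with Cnn3, Camk2d and Prss23 (0.985, 0.980 and 0.972). Cd44 ran with Vcam1, an adhesion molecule (0.959), Tspan9 (0.947) and Arhgef40 (0.945), and Vim with Rragd, Rusc2 and Tacc1 (0.975, 0.970 and 0.966).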

How the data were processed

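Poly(A) RNA of 16 libraries was sequenced on a NextSeq 500 per the labels' protocols. The authors deposited an estimated count and a TPM value for each of 136202 transcripts, made by quantifying the reads of each library on transcripts, per the file headers. Salmon 0.13.1, DESeq2 and the build GRCm38 are named in the submitters' processing notes. The 12 deposited tables give base mean signal, shrunken log2 fold change with its error, p-value and adjusted p-value, per the file headers. Estimated counts were summed per gene and rounded, and tested with edgeR 4.0.16 in R 4.3.3 (quasi-likelihood test, TMM scaling, minimum count 10 and minimum total 15, Benjamini-Hochberg adjusted p below 0.05 over all genes). Each cell type was fitted over its 3 treatment groups, and all 16 libraries together for comparisons between cell types, with every library taken as independent. Fits were tested on simulated data.

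Replicate and library numbers were checked as pairs: correlations of deviations from group means ran from -0.108 to 0.228, so the numbers were not used to pair libraries. Alternatives were DESeq2 1.42.0, RLE scaling, no filter on low counts, an offset for effective length, fits of 2 groups only, a block, and each library left out. A transcript share was compared by an exact permutation test. Named genes of a pathway list are up to 4 with the lowest p in tubular cells after exosomes, of which 1 is not reported here; the 3 genes most like each marker needed a mean of 100 reads. The members, gene lists and cell markers were chosen with earlier results of these data known. Floors of 3 reads cover counting error only. The SE of an edgeR fold was taken as the absolute log2 fold change divided by the square root of the test's F statistic. It and the SD reflect the spread between libraries.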

Additional observations from a re-analysis of the deposited data

How the results depend on the processing

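Counts of the 8 markers called moved with the test. For exosomes against scrambled miRNA in tubular cells (5 called by edgeR) DESeq2 and edgeR without a low-count filter both called 8, and the offset for effective length and the replicate block both called 0; leaving out 1 library gave 0 to 7. For the mimic against scrambled miRNA in tubular cells (0 called) DESeq2 called 8 and no filter 8, and leaving out 1 library gave 0 to 6, the 6 without scrambled-miRNA replicate 1. For the mimic against scrambled miRNA in endothelial cells (0 called) DESeq2 called 4, no filter 7, only the 2 groups compared 5 and the replicate block 3, and leaving out 1 library gave 0 to 4. For exosomes against scrambled miRNA in endothelial cells (0 called) no filter called 6 and leaving out 1 library gave 0 to 3. Without the filter the mimic against exosomes gave 3 in tubular and 4 in endothelial cells, the exosome difference between cell types 7 and the mimic difference 4, where DESeq2 called 1. Without the filter edgeR's prior degrees of freedom were infinite, against 4.348 and 4.069 with it in the tubular and endothelial fits, so every gene was there given the pooled spread. Over all genes, exosomes in tubular cells gave 765 calls by edgeR, 1828 by DESeq2, 48 with the offset and 286 with the block. No filter gave 2014 for exosomes and 1354 for the mimic in tubular cells, and 896 and 2038 in endothelial cells. The mimic in tubular cells gave 773 by DESeq2 and 494 without scrambled-miRNA replicate 1. In endothelial cells the mimic gave 0 by edgeR, 1355 by DESeq2, 1494 with only the 2 groups and 661 with the block. Of the shares of leading transcripts 1 passed, and 0 with at least 10 reads.

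Some fold changes changed sign, also where they began away from 0 (Clu between the mimic and exosomes in endothelial cells at -1.93, and Lcn2 in the exosome difference between cell types at -1.86). Sox4 in endothelial cells between the mimic and exosomes went to -0.02176 with the offset and -0.002094 with only 2 groups; with a block by library number the mimic difference between cell types went to -0.3438 for Havcr1 and 0.07539 for Spp1. By share of reads the difference in leading transcript, endothelial minus tubular, was 0.325 for Clu and -1.21 for Cd44. Leaving out 1 library gave, between the mimic and exosomes, -1.849 to 0.2536 for Sox9 and -0.7818 to 1.034 for Sox4 in tubular cells, and -0.3055 to 0.4132 for Sox4, -0.1006 to 0.2342 for Vim, -2.431 to 0.1574 for Clu and -0.8435 to 0.4765 for Sox9 in endothelial cells. It gave -0.2836 to 0.05821 for Vim in endothelial cells after exosomes and -1.08 to 0.1243 for Havcr1 between cell types. The difference between cell types ran from -2.344 to 0.224 for Lcn2 and -1.498 to 0.6218 for Spp1 after exosomes, and from -0.3287 to 2.814 for Havcr1, -7.501 to 0.02792 for Lcn2 and -1.144 to 0.2207 for Spp1 after the mimic. The cause was not tested.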
